A study of Mus musculus with 12 samples.

Results

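The genes of the mitogen-activated protein (MAP) kinase cascade and of the dual-specificity phosphatases were examined in the ischemic hemisphere of mice after stroke. Members were the protein-coding rows of the count table whose symbol was Map4k, Map3k, Map2k, Mapk, Rps6ka or Dusp followed by a number, which gave 73 of 39756 genes. They comprised 5 Map4k, 18 Map3k, 7 Map2k, 13 Mapk, 6 Rps6ka and 24 Dusp genes. RNA was sequenced from 12 male C57BL/6J mice, 4 in each of 3 groups. Sham mice had surgery without occlusion, and both Sham and Vehicle mice received saline. In Vehicle mice flow in the middle cerebral artery was stopped for a time and restored (tMCAO, a model of ischemic stroke). LJP mice underwent the same occlusion and received Laminaria japonica polysaccharide, a sugar polymer from brown kelp. By the study's methods the mice were 9 to 10 weeks old, the occlusion lasted 45 min, and dosing by mouth began 14 days before surgery and went on after it. After a dose-finding experiment the study went on with the middle of its 3 doses. The sampling time of the sequenced mice was not given in the sources used here, and each library is 1 whole hemisphere, so it mixes all cell types of infarcted and spared tissue.

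MAP kinase signalling passes phosphate groups down a chain of kinases. A MAP4K or a small G protein activates a MAP3K, which activates a MAP2K, which phosphorylates a MAP kinase on a threonine and a tyrosine, and the MAP kinase then acts on transcription factors and on further kinases such as the RSK and MSK enzymes of the Rps6ka genes. The ERK branch carries growth factor and synaptic signals, whereas the JNK and p38 branches carry stress and cytokine signals and are well known for their part in neuronal death and inflammation after ischemia. Dual-specificity phosphatases remove both phosphates again, and several of them are themselves transcribed in response to MAP kinase activity. RNA levels say nothing of the phosphorylation that sets the activity of these enzymes.

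Total counts lay between 17960353 and 22216315 per mouse, and 17558 genes had enough counts to be tested, among them 72 of the 73 members. Dusp21 had no count in any mouse, which allows up to 3 counts per library. Levels are given as CPM (read counts scaled to the normalised size of each library), and each change as a log2 fold change with its standard error (SE) from edgeR's quasi-likelihood test on all 12 mice, with p-values adjusted by the Benjamini-Hochberg method over all genes tested and called below 0.05. Vehicle mice 1 and 2 stood apart from Vehicle mice 3 and 4, so counts of members are also given without them. Summed CPM of 8 neuron markers was 6204 to 6919 in the Sham, 3943 to 6142 in the Vehicle and 5925 to 7024 in the LJP mice, and that of 5 striatal projection neuron markers was 1768 to 2044, 175.1 to 795.2 and 646.8 to 1132. The 8 infiltrating myeloid cell markers summed to 7.95 to 12.97, 48.2 to 383 and 15.4 to 84.9 CPM, 6 microglia markers to 265 to 271, 381 to 781 and 461 to 797 CPM, and 5 endothelium markers to 187.5 to 207, 268 to 1270 and 193 to 245 CPM. The 7 lymphocyte markers summed to 19.4 to 25.5, 3.82 to 5.87 and 6.91 to 12.6 CPM. Astrocyte markers (6 genes) summed to 3591 to 4066, 3468 to 5449 and 4200 to 5478 CPM, and oligodendrocyte markers (6 genes) to 4468 to 5447, 5503 to 6046 and 4421 to 5441 CPM. The 5 airway epithelium markers, foreign to brain, summed to 8.55 to 13.3 CPM in the Sham and 8.53 to 10.7 CPM in the Vehicle mice but to 0.358 to 0.669 CPM in the LJP mice, where Scgb1a1, Scgb3a2 and Sftpa1 had no count, although the labels put all libraries in 1 batch.

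Between Vehicle and Sham mice, members of the cascade moved in both directions. Of the 72 members tested, 22 rose (30.6%, against 22.7% of all genes tested) and 21 fell (29.2%, against 17.3%). The MAP kinases ERK1 (Mapk3) and p38 gamma (Mapk12), the p38 activator Map2k3, the MAP3Ks Map3k6, Map3k8 and Map3k14 and the kinase RSK1 (Rps6ka1) rose, whereas all 3 JNK genes, the p38 activator Map2k6, the JNK activator Map2k4 and the kinase MSK1 (Rps6ka5) fell. Without Vehicle mice 1 and 2, which leaves 2 mice in that group, 13 members were higher (18.1%, against 15.7% of all genes) and 15 lower (20.8%, against 14%). Without Sham mouse 3, 14 members were higher (19.4%, against 18.7%). DESeq2 called the same 22 and 21 members, beside 20% and 15.7% of its genes, and the fold and p thresholds of the study's methods, applied to edgeR's values, gave 18 higher (25%, against 15.3%) and 8 lower (11.1%, against 6.39%). In these bulk samples, fewer cells of a type and less RNA per cell cannot be told apart, and the part of the cell type markers in these changes was not tested. Between Vehicle and Sham, all 5 striatal and 2 of 8 neuron markers fell, and 5 of 6 microglia, 3 of 5 endothelium and all 5 tested myeloid markers rose. Of 6 astrocyte markers 2 rose and 1 fell, with Gfap, the marker of reactive astrocytes, going from 141 ± 22.7 to 2066 ± 604 CPM (3.87 log2 units, SE 0.28, adjusted p = 1.54e-05), of 6 oligodendrocyte markers 1 rose, and Cd4, the 1 lymphocyte marker with enough counts to be tested, fell (-2.54 log2 units, SE 0.29, adjusted p = 0.000150). Cd4 gave nearly all of the summed lymphocyte level in the Sham mice, and each of the other 6 markers had at most 13 counts in any mouse. Without Vehicle mice 1 and 2, 4 of 8 neuron markers fell and 1 rose, and 3 of 5 tested myeloid markers rose. Of 6 astrocyte markers 3 then rose and 1 fell, and no oligodendrocyte marker was called. The striatal, microglia and endothelium counts and the call of Cd4 were the same in that fit.

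**Figure D1:**
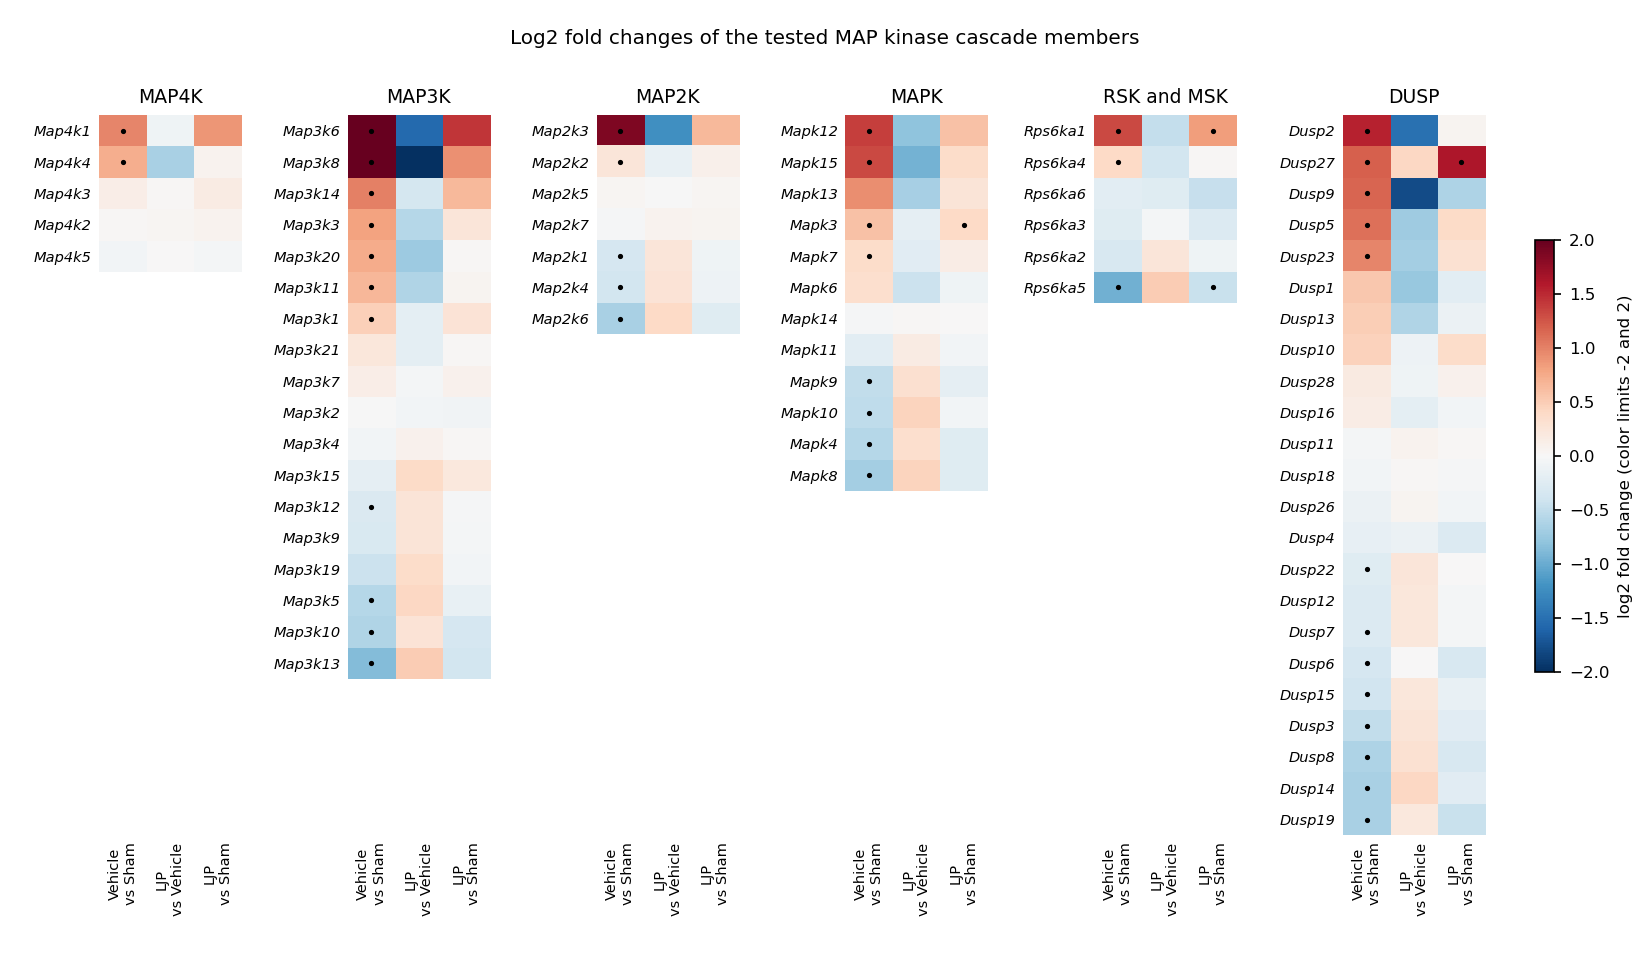
Log2 fold changes of tested members in the 3 comparisons (1 member is not shown), by tier and in order of the change between Vehicle and Sham; red is higher, blue is lower, the color scale ends at -2 and 2, and a dot marks an adjusted p below 0.05. In each tier other than MAP4K the Vehicle against Sham column has dots on both red and blue, and the LJP against Vehicle column has no dot.

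The median log2 fold change of the members between Vehicle and Sham was -0.018, beside 3.54e-05 for all genes tested, and the median absolute change was 0.47, beside 0.35. The ranges of the 4 mice did not overlap for 15 members above Sham (20.8%, against 20.7% of all genes) and 19 below it (26.4%, against 18.8%). Vehicle mouse 2 was the most changed Vehicle mouse for 17 of the 22 higher members and for 17 of the 21 lower members. The same count over all genes called was not made, so this describes the mouse and not the members. Vehicle mice 1 and 2 were the most changed pair for 16 of the 22 (72.7%) and for 18 of the 21 (85.7%), beside 70.3% and 70.7% of all genes called in the same direction. The median log2 ratio of the 22 members to the Sham mean was 0.95, 1.44, 0.36 and 0.54 in Vehicle mice 1 to 4, and between 0.12 and 0.34 in the LJP mice. For the 21 lower members it was -0.69, -0.86, -0.31 and -0.33 in the Vehicle mice and between -0.26 and -0.14 in the LJP mice. The members were chosen by this contrast, so these medians are a description of the mice and not a test.

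**Figure D2:**
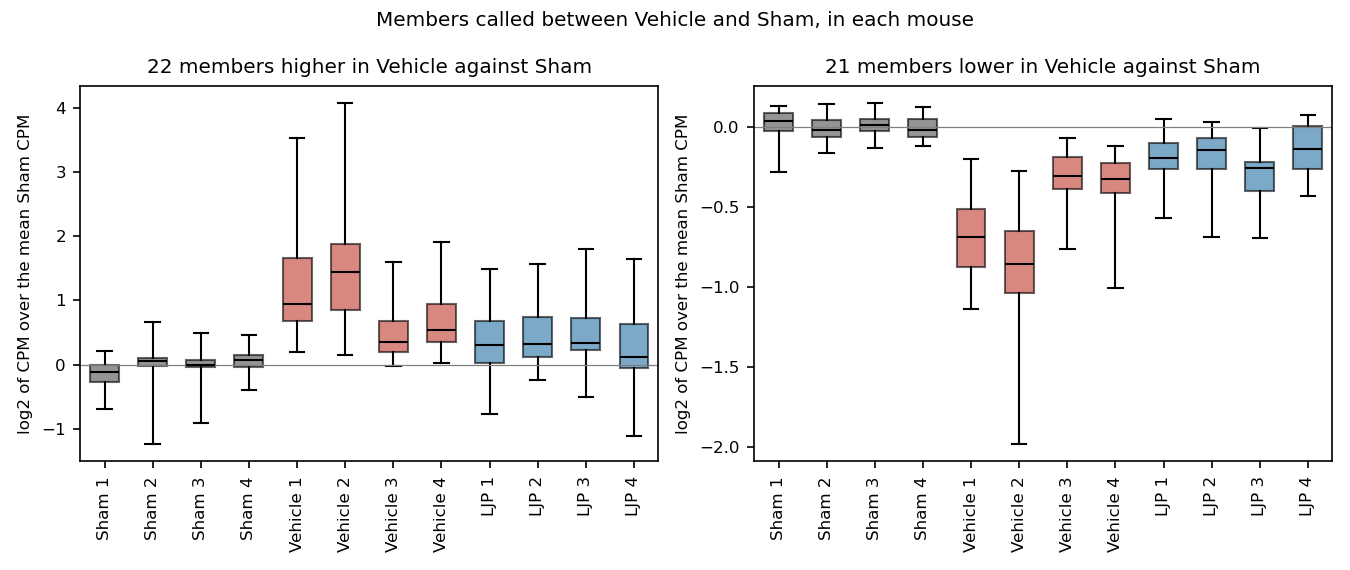
Log2 of CPM over the mean Sham CPM in each mouse, for the 22 members called higher (left) and the 21 called lower (right) between Vehicle and Sham; boxes show the quartiles and the median over members, whiskers reach the lowest and highest member. The boxes of Vehicle mice 1 and 2 lie farthest from 0, with medians of 0.95 and 1.44 on the left and -0.69 and -0.86 on the right.

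The counts of each tier and phosphatase class below stand beside 22.7% of all genes tested that rose and 17.3% that fell. No tier or class was tested against these shares. At the top of the cascade, 2 of the 5 MAP4K genes rose and none fell. Map4k4 (chr1:39900902-40026310 in GRCm38), a widely expressed kinase upstream of JNK, was at 163, 164, 162 and 165 CPM in Sham mice 1 to 4, at 278, 402, 191 and 208 CPM in Vehicle mice 1 to 4 and at 179, 159, 201 and 149 CPM in LJP mice 1 to 4. Every Vehicle mouse lay above every Sham mouse, and the LJP mice overlapped both groups. The change between Vehicle and Sham was 0.73 log2 units (SE 0.19, adjusted p = 0.0105), and it was 0.46 log2 units without Vehicle mouse 2 and 0.28 (adjusted p = 0.033) without Vehicle mice 1 and 2. Map4k1, the kinase HPK1 of blood cells, was scarce, at 1.10, 1.69, 1.151 and 2.07 CPM in the Sham, 4.54, 2.49, 2.80 and 1.99 CPM in the Vehicle and 3.04, 3.43, 2.28 and 2.40 CPM in the LJP mice. It rose in Vehicle against Sham by 0.97 log2 units (SE 0.30, adjusted p = 0.0213), and the call was lost in 3 of the 12 fits that leave out 1 mouse, with the highest adjusted p at 0.0666, and without Vehicle mice 1 and 2 (0.66 log2 units, adjusted p = 0.121). Map4k2, Map4k3 and Map4k5 had log2 fold changes between -0.049 and 0.14 and did not pass the test. Map4k5 overlaps Atl1, an abundant gene of the other strand, whose reads cannot be told apart from its own as the strand setting is not given.

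Among the 18 MAP3K genes, 7 rose and 4 fell between Vehicle and Sham, and they held the widest changes of the cascade. Map3k6, which encodes ASK2, the partner of the oxidative stress kinase ASK1, was at 3.81, 6.43, 6.52 and 7.88 CPM in the Sham mice, at 71.5, 91.7, 14.6 and 18.1 CPM in the Vehicle mice and at 13.7, 16.2, 21.1 and 15.8 CPM in the LJP mice. The Vehicle and LJP mice all lay above the Sham mice, and Vehicle mice 1 and 2 were far above the rest. Its log2 fold change was 2.99 log2 units (SE 0.53, adjusted p = 0.00137), and 1.39 (adjusted p = 0.000239) without those 2 mice. Map3k8, or TPL2, links receptors for tumor necrosis factor and bacterial products to ERK in immune cells. It was at 0.692, 0.327, 1.10 and 0.985 CPM in the Sham, 6.35, 13.1, 1.99 and 2.91 CPM in the Vehicle and 1.54, 1.38, 1.52 and 1.39 CPM in the LJP mice, from 6 to 20 counts per Sham mouse. No Vehicle mouse overlapped a mouse of either other group, and the change against Sham was 2.97 log2 units (SE 0.55, adjusted p = 0.00174), or 1.64 (adjusted p = 0.00292) without Vehicle mice 1 and 2.

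The kinase NIK (Map3k14), which starts the noncanonical NF-kappaB pathway, was more even within its group, at 4.04, 5.89, 5.15 and 5.49 CPM in the Sham and 11.2, 11.9, 7.91 and 10.1 CPM in the Vehicle mice, and rose by 1.00 log2 units (SE 0.18, adjusted p = 0.00133). In the LJP mice it was at 8.31, 6.75, 9.90 and 7.47 CPM, above all Sham mice. Map3k3, a MEKK with a known role in blood vessels, rose by 0.81 log2 units (SE 0.23, adjusted p = 0.0137), Map3k20, the ribosome stress sensor ZAK, by 0.75 log2 units (SE 0.23, adjusted p = 0.0226), and Map3k1 by 0.47 log2 units (SE 0.15, adjusted p = 0.0246). Map3k20 and Map3k1 were not called in several of the fits that leave out 1 mouse, nor without Vehicle mice 1 and 2, whereas Map3k3 kept its call without those mice, with 0.29 log2 units (adjusted p = 0.014).

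The mixed lineage kinases, which feed the JNK branch, moved apart. Map3k11 (MLK3) was at 42.7, 44.0, 43.4 and 48.6 CPM in the Sham, 72.6, 99.9, 55.0 and 56.1 CPM in the Vehicle and 44.6, 47.5, 47.1 and 47.4 CPM in the LJP mice, and rose in Vehicle by 0.67 log2 units (SE 0.16, adjusted p = 0.00570). Map3k10 (MLK2), per length the most abundant MAP3K, was at 369, 385, 400.3 and 419 CPM in the Sham mice against 244, 181, 318 and 297 CPM in the Vehicle and 335, 338, 269 and 309 CPM in the LJP mice, with no overlap between Sham and the others, and in Vehicle fell by 0.60 on the log2 scale (SE 0.15, adjusted p = 0.0074). Map3k9 and Map3k21, of the same family, had log2 fold changes of -0.31 (adjusted p = 0.09002) and 0.23 (adjusted p = 0.394). The axon injury kinases DLK (Map3k12) and LZK (Map3k13), which act on JNK in neurons, both fell, Map3k12 with -0.28 log2 units (SE 0.090, adjusted p = 0.0250) and Map3k13 with -0.87 log2 units (SE 0.25, adjusted p = 0.0144). Map3k5, encoding ASK1, fell as its partner Map3k6 rose, from 68.3 ± 3.29 CPM (mean ± SD, n = 4 here and below) to 46.1 ± 15.5 CPM, with -0.57 log2 units (SE 0.19, adjusted p = 0.0278). The calls of Map3k12 and Map3k5 were lost in several of the fits that leave out 1 mouse, and that of Map3k12 also without Vehicle mice 1 and 2. Without those mice Map3k11 was at 0.31, Map3k10 at -0.36, Map3k13 at -0.53 and Map3k5 at -0.21 log2 units, and all 4 were still called. Map3k2, Map3k4 and Map3k7 (TAK1), a central kinase of cytokine signalling, had log2 fold changes between -0.062 and 0.13 and were not called. Map3k3, Map3k11, Map3k12 and Map3k15 overlap abundant genes of the other strand (Limd2, Pcnx3, Pcbp2 and Pdha1), and as the strand setting is not given, reads of such partners cannot be told apart. Map3k15 and Map3k19 had log2 fold changes of -0.17 (adjusted p = 0.381) and -0.43 (adjusted p = 0.157).

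At the MAP2K tier, 2 genes rose and 3 fell, and the partners of the ERK and of the p38 branch took opposite directions. Map2k3 (chr11:60932054-60952811), which encodes the p38 activator MKK3, was at 9.40, 9.59, 9.59 and 8.40 CPM in the Sham mice, 38.9, 62.3, 15.0 and 19.1 CPM in the Vehicle mice and 13.5, 14.1, 15.7 and 14.4 CPM in the LJP mice. All LJP mice and all Vehicle mice lay above the Sham mice, with Vehicle mice 1 and 2 highest. It rose in Vehicle against Sham by 1.87 log2 units (SE 0.35, adjusted p = 0.00188), and by 0.88 (adjusted p = 0.000115) without Vehicle mice 1 and 2. Its partner Map2k6 (MKK6) was at 38.9, 40.1, 34.9 and 39.0 CPM in the Sham and 18.4, 19.8, 30.5 and 29.2 CPM in the Vehicle mice, and fell, with -0.64 log2 units (SE 0.15, adjusted p = 0.00518), or -0.36 (adjusted p = 0.00418) without Vehicle mice 1 and 2. Per length, the ratio of Map2k3 to Map2k6 was 1.18 to 1.51 in the Sham mice, 2.69 to 17.3 in the Vehicle mice and 2.24 to 2.64 in the LJP mice. This and the other ratio given below were formed after the values had been seen, and were not tested.

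The ERK activator MEK2 (Map2k2) rose slightly, from 89.9 ± 5.35 to 107 ± 6.83 CPM (0.25 log2 units, SE 0.067, adjusted p = 0.0118). MEK1 (Map2k1), in the Sham and LJP groups the more abundant of the pair per length, was at 339, 349.9, 335 and 328 CPM in the Sham, 293, 206, 296 and 278 CPM in the Vehicle and 321, 321, 286 and 339 CPM in the LJP mice, and fell in Vehicle, with -0.33 log2 units (SE 0.11, adjusted p = 0.0257). That call was lost in 3 of the 12 fits that leave out 1 mouse (highest adjusted p = 0.0633). Of the JNK activators, Map2k4 fell (-0.37 log2 units, SE 0.092, adjusted p = 0.00814), whereas Map2k7 was at -0.016 log2 units (SE 0.062, adjusted p = 0.848). Map2k5, which acts on ERK5, was at 0.042 log2 units (SE 0.094, adjusted p = 0.747).

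**Figure D3:**
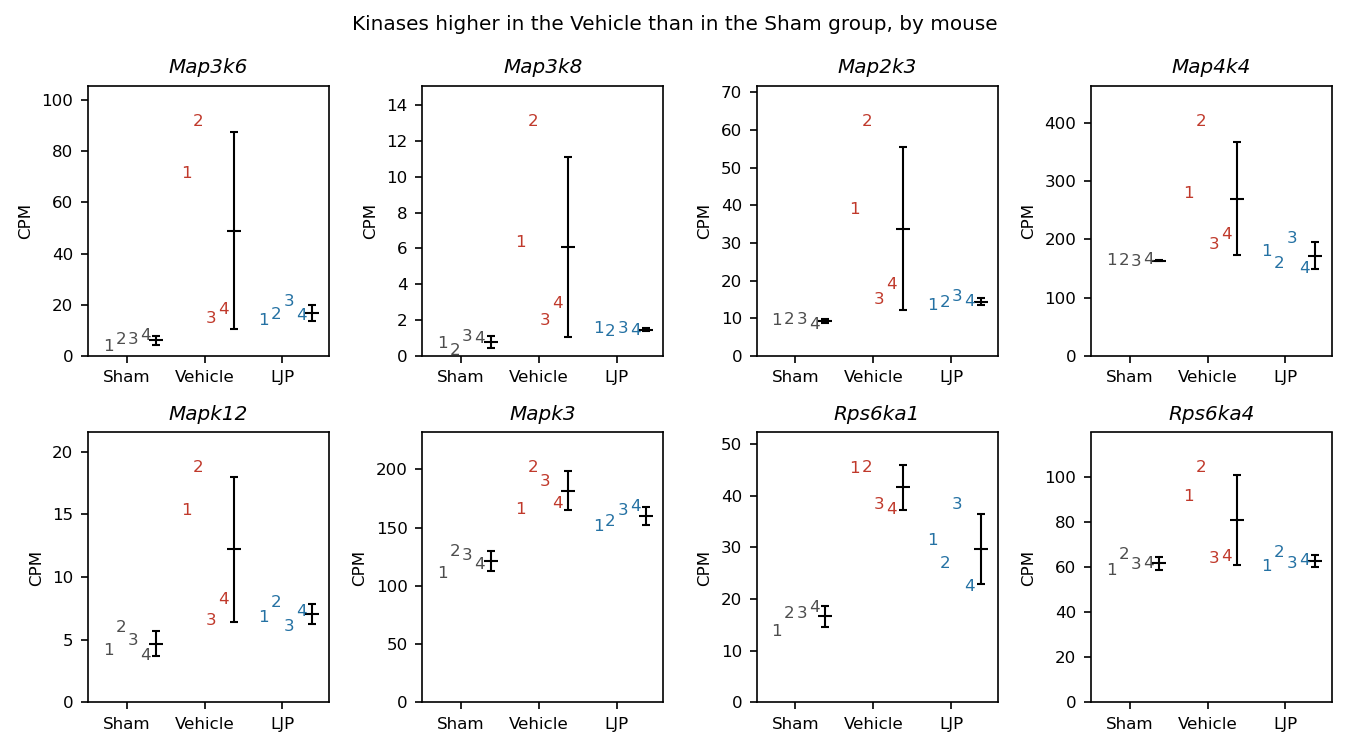
CPM of 8 kinases that rose between Sham and Vehicle; each digit is the replicate number of 1 mouse, and the bars are the mean and SD of the 4 mice. Rps6ka1 and Mapk3 separate all 4 Vehicle mice from all Sham mice with little spread, whereas for Map3k6, Map3k8, Map2k3 and Mapk12 mice 1 and 2 carry much of the Vehicle mean.

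The 13 MAP kinases themselves held 4 higher and 5 lower genes. Per length, Mapk3 was the most abundant member in the Vehicle and LJP groups, by group means. Mapk3 (ERK1, chr7:126759626-126765816) was at 111, 129.5, 126 and 119 CPM in the Sham, 165, 202, 189.5 and 171 CPM in the Vehicle and 151, 156, 165 and 168 CPM in the LJP mice. Every Sham mouse lay below every mouse of the other groups. Between Vehicle and Sham, Mapk3 rose by 0.58 log2 units (SE 0.081, adjusted p = 0.000376). The call held in all 12 fits that leave out 1 mouse and, with 0.56 log2 units, without Vehicle mice 1 and 2.

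All 3 JNK genes fell. Mapk8 (JNK1) was at 84.0, 80.5, 86.9 and 77.4 CPM in the Sham mice, 39.5, 43.6, 60.0 and 61.7 CPM in the Vehicle mice and 72.3, 66.2, 67.8 and 73.0 CPM in the LJP mice. Every Vehicle mouse was below every mouse of the other groups. The log2 fold change in Vehicle against Sham was -0.68 log2 units (SE 0.13, adjusted p = 0.00182). Mapk9 (JNK2) fell from 225 ± 5.30 to 160.3 ± 27.4 CPM, with -0.49 log2 units (SE 0.11, adjusted p = 0.00371), and Mapk10 (JNK3), the neuron-enriched isoform, from 330.0 ± 17.2 to 233 ± 68.1 CPM, with -0.50 log2 units (SE 0.17, adjusted p = 0.0293). Without Vehicle mice 1 and 2, Mapk8 and Mapk9 were still called (-0.44 and -0.32 log2 units), while Mapk10 was at -0.19 log2 units (adjusted p = 0.0636). The call of Mapk10 was also lost without Sham mouse 1, 3 or 4 and without Vehicle mouse 1.

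Of the p38 genes only Mapk12 was called. Mapk12 (p38 gamma) was at 4.15, 5.94, 4.93 and 3.73 CPM in the Sham, 15.3, 18.7, 6.57 and 8.24 CPM in the Vehicle and 6.81, 7.98, 6.09 and 7.25 CPM in the LJP mice, and rose in Vehicle by 1.39 log2 units (SE 0.29, adjusted p = 0.00356), or 0.65 (adjusted p = 0.0185) without Vehicle mice 1 and 2. Gm46530, on the other strand, overlaps it. The widely expressed form p38 alpha (Mapk14) was at 106 ± 3.64, 104 ± 4.71 and 106 ± 5.82 CPM in Sham, Vehicle and LJP mice, with -0.019 log2 units (SE 0.063, adjusted p = 0.828) in Vehicle against Sham. Mapk11 was at -0.21 log2 units (SE 0.14, adjusted p = 0.260) and the scarce Mapk13 at 0.93 log2 units (SE 0.47, adjusted p = 0.132). Among the remaining kinases, the atypical Mapk4 (ERK4) was at 123, 137, 128 and 122 CPM in the Sham, 77.4, 74.0, 97.3 and 92.9 CPM in the Vehicle and 107, 117, 100.3 and 108 CPM in the LJP mice. It fell in Vehicle, with -0.58 log2 units (SE 0.093, adjusted p = 0.000825). ERK5 (Mapk7) rose by 0.37 log2 units (SE 0.12, adjusted p = 0.0293) and the scarce Mapk15 by 1.32 log2 units (SE 0.40, adjusted p = 0.0210). Mapk15 was not called without Vehicle mice 1 and 2, and neither was Mapk7. Mapk6 (ERK3) was at 0.33 log2 units (SE 0.15, adjusted p = 0.0900). Without Vehicle mouse 3, or without Vehicle mouse 4, Mapk6 was called higher here and lower in LJP against Vehicle. Without Vehicle mice 1 and 2 it was at -0.047 log2 units (adjusted p = 0.676). Mapk13 was also called higher in Vehicle against Sham without Vehicle mouse 3.

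**Figure D4:**
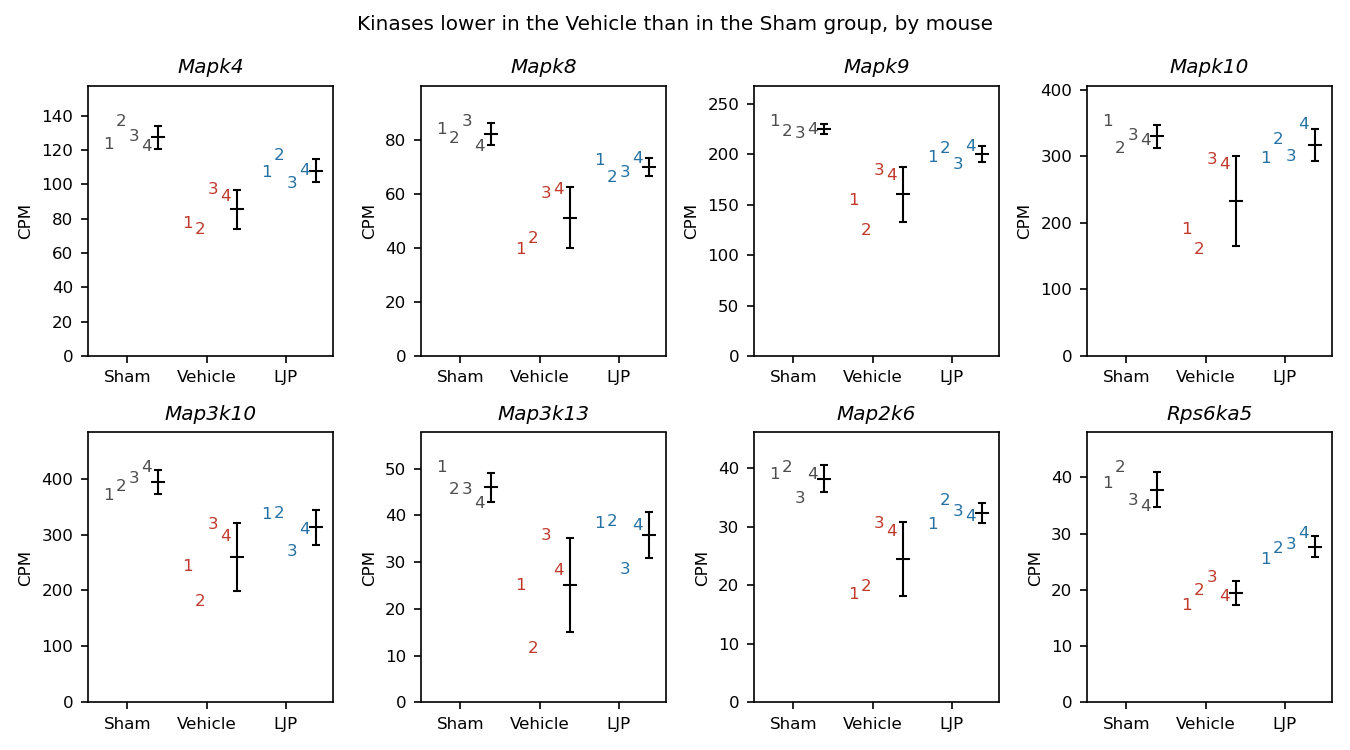
CPM of 8 kinases that fell between Sham and Vehicle; each digit is the replicate number of 1 mouse, and the bars are the mean and SD of the 4 mice. For Mapk4, Mapk8, Mapk9, Mapk10 and Rps6ka5 the LJP mice lie above all Vehicle mice, and for Mapk4, Mapk8, Mapk9 and Rps6ka5 they also lie below all Sham mice.

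The substrate kinases of the Rps6ka family gave the smallest p-values of all members. Rps6ka5 (MSK1), a nuclear kinase that phosphorylates CREB and histone H3, was at 38.9, 41.7, 35.9 and 34.8 CPM in the Sham mice, 17.2, 19.9, 22.3 and 18.8 CPM in the Vehicle mice and 25.5, 27.3, 28.0 and 30.0 CPM in the LJP mice. The 3 groups did not overlap, with the LJP mice in between. Vehicle against Sham gave -0.95 log2 units (SE 0.10, adjusted p = 9.61e-05), and the change was between -1.02 and -0.90 whichever mouse was left out. Rps6ka1 (RSK1) was at 13.7, 17.2, 17.2 and 18.5 CPM in the Sham, 45.3, 45.4, 38.4 and 37.3 CPM in the Vehicle and 31.3, 26.9, 38.3 and 22.4 CPM in the LJP mice. Both occlusion groups lay above Sham without overlap, and Vehicle against Sham gave 1.32 log2 units (SE 0.16, adjusted p = 0.000151), or 1.18 without Vehicle mice 1 and 2. MSK2 (Rps6ka4) was at 58.7, 65.6, 61.2 and 61.6 CPM in the Sham, 91.5, 104, 63.7 and 65.0 CPM in the Vehicle and 60.5, 66.6, 61.6 and 62.9 CPM in the LJP mice. It rose in Vehicle by 0.39 log2 units (SE 0.14, adjusted p = 0.0367), a call that was lost in 7 of the 12 fits that leave out 1 mouse and was at 0.054 log2 units (adjusted p = 0.595) without Vehicle mice 1 and 2. RSK2 (Rps6ka3) was at 66.3, 62.2, 54.6 and 51.9 CPM, 42.8, 60.8, 46.5 and 49.5 CPM and 52.1, 45.3, 45.5 and 51.2 CPM in the 3 groups in the same order. Its change in Vehicle was -0.24 log2 units (SE 0.11, adjusted p = 0.115). It was called lower without Vehicle mouse 2 (-0.35, adjusted p = 0.0121) and without Vehicle mice 1 and 2 (-0.30, adjusted p = 0.0302), and was at -0.17 without Vehicle mouse 1. With all 12 mice, RSK3 (Rps6ka2) was at -0.32 log2 units (SE 0.17, adjusted p = 0.143) and RSK4 (Rps6ka6) at -0.21 log2 units (SE 0.29, adjusted p = 0.583).

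Of the 10 typical MAP kinase phosphatases, which carry a MAP kinase binding domain, 3 rose and 3 fell in Vehicle against Sham. The 4 nuclear inducible ones did not move as 1 group. Dusp5, which acts on nuclear ERK, was at 16.3, 15.4, 17.8 and 15.3 CPM in the Sham, 50.1, 44.7, 18.8 and 24.3 CPM in the Vehicle and 11.1, 21.8, 20.2 and 31.6 CPM in the LJP mice. All Vehicle mice lay above all Sham mice, with mice 1 and 2 highest, and LJP mice lay on both sides of the Sham range. The change against Sham was 1.09 log2 units (SE 0.32, adjusted p = 0.0182). It was not called without Vehicle mouse 1 (adjusted p = 0.0584) or without Vehicle mice 1 and 2 (0.41, adjusted p = 0.274). Dusp2 (PAC-1), a phosphatase of activated leukocytes, was at 0.807, 1.14, 1.10 and 1.09 CPM in the Sham, 3.27, 5.89, 1.02 and 1.78 CPM in the Vehicle and 1.23, 1.13, 1.20 and 0.725 CPM in the LJP mice. Vehicle mice 1, 2 and 4 lay above all Sham and LJP mice, LJP mice 1 and 3 lay just above the Sham range, and Vehicle mouse 3 lay within it. Its change of 1.53 log2 units (SE 0.44, adjusted p = 0.0162) was not called without Vehicle mouse 2 (0.97, adjusted p = 0.0544) or without Vehicle mice 1 and 2 (0.43, adjusted p = 0.391). The best known member, Dusp1 (MKP-1), an immediate early gene, was at 45.9, 54.8, 52.1 and 54.5 CPM in the Sham, 104, 103, 42.4 and 52.7 CPM in the Vehicle and 27.7, 57.7, 43.1 and 49.8 CPM in the LJP mice. Vehicle mice 1 and 2 were above all others while mice 3 and 4 lay at the Sham level, and the comparison gave 0.54 log2 units (SE 0.28, adjusted p = 0.137). Leaving out 1 mouse gave 0.35 log2 units (adjusted p = 0.358, without Vehicle mouse 1) to 0.74 (adjusted p = 0.0274, without Vehicle mouse 3), and without Vehicle mice 1 and 2 the sign turned, with -0.13 log2 units (adjusted p = 0.675). Dusp4 (MKP-2) was at 17.7, 17.2, 20.7 and 17.5 CPM in the Sham, 17.2, 15.5, 15.99 and 16.6 CPM in the Vehicle and 14.3, 15.8, 11.6 and 18.8 CPM in the LJP mice, with -0.16 log2 units (SE 0.13, adjusted p = 0.337) in Vehicle.

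The ERK phosphatases of the cytoplasm were divided as well. Dusp6 (MKP-3), a standard readout of ERK activity, was at 76.5, 62.4, 72.5 and 69.0 CPM in the Sham, 44.6, 57.8, 56.5 and 64.1 CPM in the Vehicle and 57.1, 54.4, 52.8 and 60.4 CPM in the LJP mice. All LJP mice were below all Sham mice, whereas Vehicle mouse 4 lay within the Sham range. It fell in Vehicle against Sham, with -0.33 log2 units (SE 0.10, adjusted p = 0.0245), a call lost in 2 of the 12 fits that leave out 1 mouse. Dusp7 was at 150.1, 139, 160.1 and 164 CPM in the Sham, 114, 109, 146 and 137 CPM in the Vehicle and 147, 150.2, 152 and 144 CPM in the LJP mice. In Vehicle it fell by 0.28 on the log2 scale (SE 0.094, adjusted p = 0.0337), a call lost in 5 of those fits. The third gene, Dusp9 (MKP-4), was near the limit of detection, with 13 to 17 counts per Sham mouse and 16 to 68 per Vehicle mouse. It was at 0.980, 0.872, 0.712 and 0.8292 CPM in the Sham, 2.68, 2.92, 1.13 and 0.862 CPM in the Vehicle and 0.4996, 0.716, 0.598 and 0.390 CPM in the LJP mice, where every mouse lay below every Vehicle mouse. It rose in Vehicle by 1.17 log2 units (SE 0.38, adjusted p = 0.0286), and the call was lost in 6 of the 12 fits that leave out 1 mouse. Without Vehicle mice 1 and 2 none of the 3 was called, with log2 fold changes of -0.22 for Dusp6 (adjusted p = 0.0625), -0.12 for Dusp7 (adjusted p = 0.215) and 0.23 for Dusp9 (adjusted p = 0.696). The ratio of Dusp5 to Dusp6, per length, was 0.327 to 0.379 in the Sham, 0.512 to 1.73 in the Vehicle and 0.299 to 0.807 in the LJP mice. Of the JNK and p38 phosphatases, the brain-enriched Dusp8 fell. It was at 257, 259.7, 267 and 273 CPM in the Sham, 182, 123, 194 and 190.2 CPM in the Vehicle and 216, 227, 189 and 216 CPM in the LJP mice, with Sham above all others. The change in Vehicle was -0.62 log2 units (SE 0.12, adjusted p = 0.00265), and -0.46 (adjusted p = 0.000174) without Vehicle mice 1 and 2. Dusp10 was at 0.46 log2 units (SE 0.19, adjusted p = 0.0639) and Dusp16 at 0.15 log2 units (SE 0.13, adjusted p = 0.373).

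**Figure D5:**
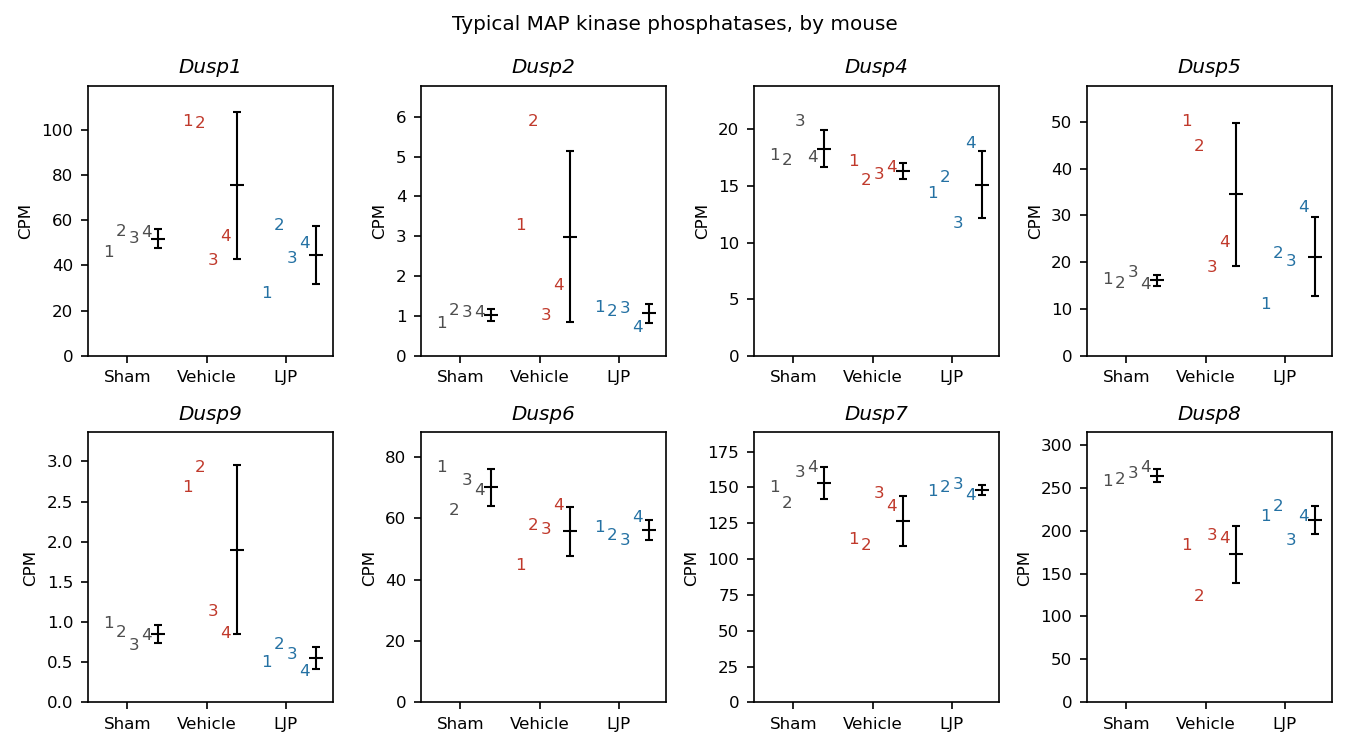
CPM of 8 typical MAP kinase phosphatases; each digit is the replicate number of 1 mouse, and the bars are the mean and SD of the 4 mice. Dusp1, Dusp2, Dusp5 and Dusp9 are highest in Vehicle mice 1 and 2, whereas Dusp8 is lowest in Vehicle mouse 2.

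The sequence before the start of 3 of these phosphatases is printed because they hold a CRE or CArG box, elements through which MAP kinase signals reach genes, and their RNA took different directions. Promoters of 57 of the 73 members (75 in all) were found in the RefSeq table for GRCm38.p6, as the 250 bases before each start, and searched on both strands. The cyclic AMP response element (CRE, TGACGTCA), bound by CREB, the target of the MSK and RSK kinases, was in 3 of the 75 (4%), beside 1.55% of 32851 promoters: those of Dusp1, Dusp8 and Mapk10. Its core (TGACG), which the full element also contains, was in 21 (28%), beside 17.8%. The AP-1 element (TGAGTCA), bound by Fos and Jun, was in 3 (4%), beside 4.46%: those of Dusp13, Map3k10 and Rps6ka4. The CArG box, the site of serum response factor, was searched after the data had been seen, and was in the promoter of Dusp5 alone (1.33%), beside 1.47%. A match is a description of the letters and not of binding. In the lines below, 5′ to 3′ on the strand of the gene, capitals mark CRE, CRE cores or, in Dusp5, 2 CArG boxes and after them a CRE core. The CRE of Dusp1 starts 143 bases before the start, with a core at 191; those of Dusp8 lie at 107 and 63, and the CArG boxes of Dusp5 at 82 and 72 with the core at 55.
Dusp1, chr17:26508473-26508722, minus strand: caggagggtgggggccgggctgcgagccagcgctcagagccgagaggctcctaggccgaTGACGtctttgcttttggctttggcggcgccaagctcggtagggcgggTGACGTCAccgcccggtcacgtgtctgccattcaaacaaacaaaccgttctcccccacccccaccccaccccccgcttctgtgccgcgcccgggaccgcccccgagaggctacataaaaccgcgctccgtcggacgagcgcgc
Dusp5, chr19:53528895-53529144, plus strand: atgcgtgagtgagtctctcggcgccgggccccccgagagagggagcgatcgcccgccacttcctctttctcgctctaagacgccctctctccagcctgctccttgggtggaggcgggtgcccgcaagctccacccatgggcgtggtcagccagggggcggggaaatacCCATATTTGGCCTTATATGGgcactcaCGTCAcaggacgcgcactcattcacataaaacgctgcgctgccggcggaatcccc
Dusp8, chr7:142095285-142095534, minus strand: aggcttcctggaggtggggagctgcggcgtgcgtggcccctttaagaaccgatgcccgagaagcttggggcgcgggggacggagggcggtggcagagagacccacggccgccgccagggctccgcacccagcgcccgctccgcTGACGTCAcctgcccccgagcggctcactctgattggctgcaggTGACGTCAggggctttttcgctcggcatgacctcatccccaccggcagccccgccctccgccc
Beside these sequences, the log2 fold changes in Vehicle against Sham were 0.54 for Dusp1 (not called), 1.09 for Dusp5 (higher) and -0.62 for Dusp8 (lower). Mapk10, the other member with the full element, fell.

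The atypical dual-specificity phosphatases lack the MAP kinase binding domain, and many act on other substrates. Of 13 tested, 2 rose and 5 fell. Dusp3 (VHR), in the Sham group the most abundant of them per length, was at 223, 202, 219 and 225 CPM in the Sham, 131, 126, 181 and 181 CPM in the Vehicle and 186, 181, 181 and 193 CPM in the LJP mice, and fell, with -0.49 log2 units (SE 0.11, adjusted p = 0.00585), or -0.27 (adjusted p = 0.00353) without Vehicle mice 1 and 2. All Sham mice lay above all mice with an occlusion. Dusp14 was at 45.7, 38.5, 42.0 and 46.4 CPM in the Sham, 23.8, 22.8, 31.8 and 31.9 CPM in the Vehicle and 40.4, 30.9, 32.7 and 43.6 CPM in the LJP mice, and fell in Vehicle, with -0.65 log2 units (SE 0.14, adjusted p = 0.00414). Dusp19 was at 9.98, 9.86, 11.4 and 9.95 CPM, 5.17, 4.73, 8.13 and 8.19 CPM and 8.18, 6.39, 7.94 and 7.64 CPM in the same order, and fell in Vehicle, with -0.66 log2 units (SE 0.18, adjusted p = 0.0139), a call lost without Vehicle mice 1 and 2 (-0.34 log2 units, adjusted p = 0.0771). Dusp15 and Dusp22 fell by 0.39 and 0.24 on the log2 scale, calls that several of the fits without 1 mouse, and the fit without Vehicle mice 1 and 2, did not make. Dusp23 rose by 0.97 log2 units (SE 0.24, adjusted p = 0.00795). Dusp27, a catalytically inactive member best known from muscle, had 5 to 15 counts per Sham mouse and 13 to 29 per Vehicle mouse. It was at 0.590, 1.16, 1.56 and 1.51 CPM in the Vehicle mice, and rose by 1.20 log2 units (SE 0.37, adjusted p = 0.0219). That call was lost without Sham mouse 1 or 3 (highest adjusted p = 0.0648) and with only the 2 groups compared. Dusp13 was lower still, at 1 to 15 counts per mouse over the 12 mice. Dusp11, Dusp12, Dusp18, Dusp26 and Dusp28 had log2 fold changes between -0.27 and 0.18 and were not called.

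LJP was then compared with Vehicle, the comparison that addresses the treatment. It shares its Vehicle mice with the comparison above, so a chance high or low value there enters both with opposite sign. By edgeR 0 members were called in either direction, and of all genes tested 0% were called higher and 0.0228% lower. At an unadjusted p below 0.05, 17 members were higher (23.6%, against 12.3% of all genes) and 19 lower (26.4%, against 17.4%). DESeq2, the tool of the study's methods, called 6 members higher (8.45% of 71 with an adjusted p, against 3.88% of genes) and 9 lower (12.7%, against 9.48%). The 6 included Rps6ka5, Mapk4, Mapk8, Mapk9 and Dusp14, and the 9 were Map3k8, Map3k6, Map3k11, Map3k20, Map2k3, Map4k4, Rps6ka1, Dusp2 and Dusp9. With edgeR and the fold and p thresholds of the study's methods, 0 members were higher (against 1.07% of genes) and 8 lower (11.1%, against 5.89%).

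The 4 LJP mice lay above all 4 Vehicle mice for 8 members (11.1%, against 5.77% of all genes), among them Rps6ka5, Map2k4, Mapk4, Mapk8, Mapk9, Mapk10 and Dusp22. They lay below all 4 Vehicle mice for 4 members (5.56%, against 5.91%): Map3k8, Map3k11, Map2k2 and Dusp9. The smallest p-value of the members belonged to Rps6ka5, at 19.5 ± 2.15 CPM in Vehicle and 27.7 ± 1.86 CPM in LJP mice, with 0.50 log2 units (SE 0.10, adjusted p = 0.0678) by edgeR and an adjusted p of 0.00105 by DESeq2. Mapk8 gave 0.45 log2 units (SE 0.13, adjusted p = 0.0699) and Mapk4 0.34 log2 units (SE 0.092, adjusted p = 0.0680). These kinases thus had higher means with LJP, by differences that edgeR did not call after adjustment.

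In the other direction, Map3k8 was at 6.09 ± 5.04 CPM in Vehicle and 1.46 ± 0.0853 CPM in LJP mice, with -2.06 log2 units (SE 0.51, adjusted p = 0.0678). Map2k3 gave -1.23 log2 units (SE 0.34, adjusted p = 0.0690), Map3k6 -1.56 log2 units (SE 0.49, adjusted p = 0.0792), Map3k11 -0.61 log2 units (SE 0.16, adjusted p = 0.0678) and Map4k4 -0.65 log2 units (SE 0.19, adjusted p = 0.0720). Among the phosphatases, Dusp9 gave -1.78 log2 units (SE 0.40, adjusted p = 0.0678), Dusp2 -1.49 log2 units (SE 0.44, adjusted p = 0.0722), Dusp1 -0.76 log2 units (SE 0.28, adjusted p = 0.108), Dusp5 -0.71 log2 units (SE 0.32, adjusted p = 0.161) and Dusp6 0.011 log2 units (SE 0.10, adjusted p = 0.952). For Map3k6, Map2k3, Map4k4, Dusp1 and Dusp2, Vehicle mice 1 and 2 lay above all LJP mice. Vehicle mice 3 and 4 both lay within the LJP range for Map3k6 and Dusp1, and mouse 3 did for Map2k3, Map4k4 and Dusp2. Without Vehicle mouse 3, edgeR called 13 members higher (18.1%, against 8.46% of all genes) and 17 lower (23.6%, against 13.1%) in LJP. Without Vehicle mouse 4 it called 7 (9.72%, against 3.35%) and 10 (13.9%, against 8.38%). Without Vehicle mice 1 and 2 it called 0 in either direction, with 7 higher (9.72%, against 6.24%) and 7 lower (9.72%, against 7.27%) at an unadjusted p below 0.05, and DESeq2 was not run there. The log2 fold changes without those mice were -0.24 for Map2k3, 0.030 for Map3k6, -0.75 for Map3k8, -0.26 for Map3k11, -0.22 for Map4k4, -0.85 for Dusp9, -0.39 for Dusp2, -0.098 for Dusp1 and -0.034 for Dusp5. On the higher side they were 0.43 for Rps6ka5, 0.20 for Mapk8 and 0.18 for Mapk4. The summed endothelium markers (268 to 1270 CPM in Vehicle, 193 to 245 CPM in LJP mice), airway epithelium markers (8.53 to 10.7 CPM and 0.358 to 0.669 CPM), oligodendrocyte markers (5503 to 6046 CPM and 4421 to 5441 CPM) and lymphocyte markers (3.82 to 5.87 CPM and 6.91 to 12.6 CPM) also separated the 2 groups, and their part in these differences was not tested. Of the 4 airway markers tested, 3 were lower in LJP.

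LJP was also set against Sham, to see which members differed from uninjured brain under treatment. Here 3 members were higher (4.17%, against 3.85% of all genes tested) and 1 was lower (1.39%, against 0.9%). At an unadjusted p below 0.05, 6 were higher (8.33%, against 11.6%) and 7 lower (9.72%, against 7.29%), and DESeq2 called 4 (5.56%, against 5.67%) and 1 (1.39%, against 1.98%). The study's thresholds gave 3 (4.17%, against 5.1%) and 0 (against 0.797%). Rps6ka1 was at 16.7 ± 2.04 CPM in Sham and 29.7 ± 6.81 CPM in LJP mice and rose by 0.84 log2 units (SE 0.15, adjusted p = 0.00786). Mapk3 rose by 0.40 log2 units (SE 0.081, adjusted p = 0.0137), and Rps6ka5 fell, with -0.45 log2 units (SE 0.10, adjusted p = 0.0192). Dusp27 was at 1.45, 1.53, 1.80 and 1.62 CPM in the LJP mice against 0.404, 0.817, 0.274 and 0.570 CPM in the Sham mice, and rose by 1.62 log2 units (SE 0.37, adjusted p = 0.0245). Leaving out 1 mouse ended the call of Dusp27 in 5 of 12 fits, of Rps6ka5 in 4 and of Mapk3 in 3, and left that of Rps6ka1 in all. Between LJP and Sham, 5 of 6 microglia, 2 of 6 astrocyte and 1 of 5 tested myeloid markers were called higher. Called lower were 3 of 4 tested airway markers, 1 of 5 striatal markers and Cd4. No neuron, oligodendrocyte or endothelium marker was called. Summed airway markers were at 8.55 to 13.3 CPM in the Sham and 0.358 to 0.669 CPM in the LJP mice. The part of the markers in these differences was not tested.

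Other members had differences from Sham that did not pass in this fit. Map3k14 was at 0.66 log2 units (SE 0.18, adjusted p = 0.0528), Map3k6 at 1.44 log2 units (SE 0.51, adjusted p = 0.145), Map4k1 at 0.89 log2 units (SE 0.30, adjusted p = 0.122) and Map2k3 at 0.64 log2 units (SE 0.35, adjusted p = 0.350). On the lower side were Dusp6, with -0.32 log2 units (SE 0.10, adjusted p = 0.111), Mapk4, with -0.24 log2 units (SE 0.092, adjusted p = 0.177), and Dusp8, with -0.32 log2 units (SE 0.12, adjusted p = 0.182). A fit of these 2 groups alone, in which the spread of the Vehicle mice has no part, called 9 members higher (12.7%, against 12.1% of all genes) and 13 lower (18.3%, against 11.8%). The fit without Vehicle mice 1 and 2 also called 9 (12.5%, against 12.3%) and 13 (18.1%, against 12%). The 9 were the 3 named above with Map2k3, Map3k3, Map3k6, Map3k14, Map4k1 and Mapk12. For 11 members the LJP mice lay above all Sham mice (15.3%, against 12.9% of genes), and for 11 below them (15.3%, against 12%). The median absolute log2 fold change of the members was 0.16 here, beside 0.17 for all genes tested.

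Genes that feed, scaffold or answer the cascade were taken from fixed lists, which were drawn up with earlier results of these data known and whose counts are set beside the 22.7% and 17.3% of all genes called higher and lower between Vehicle and Sham. Of 24 genes of RAS and RAF input, 4 rose and 7 fell, with a median log2 fold change of -0.16. The guanine exchange factor Rasgrp2, abundant in striatal neurons, fell from 91.1 ± 7.81 to 23.6 ± 9.02 CPM (-1.95 log2 units, SE 0.24, adjusted p = 0.000209), Braf fell (-0.47 log2 units, SE 0.093, adjusted p = 0.00229), and the adaptor Shc1 rose (2.06 log2 units, SE 0.36, adjusted p = 0.00129). Of 6 measured Sprouty and Spred inhibitors of RAS signalling, 1 rose and 2 fell (median -0.22): Spry1 at 0.87 log2 units (SE 0.19, adjusted p = 0.00451), Spred1 at -0.54 log2 units (SE 0.10, adjusted p = 0.00185) and Spred2 at -0.47 log2 units (SE 0.12, adjusted p = 0.0105). Of 14 scaffolds and adaptors, 3 rose and 2 fell (median -0.032), and the smallest p-values were those of Arrb2 (0.85 log2 units, SE 0.10, adjusted p = 0.000182), Iqgap1 (1.89 log2 units, SE 0.34, adjusted p = 0.00154) and Lamtor1 (0.41 log2 units, SE 0.094, adjusted p = 0.00510), all higher.

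Below the MAP kinases, 4 of 5 MAPK-activated kinases rose and none fell (median 0.60). They included the p38 effectors Mapkapk2, from 31.5 ± 2.31 to 79.2 ± 23.8 CPM (1.33 log2 units, SE 0.19, adjusted p = 0.000393), and Mapkapk3 (1.44 log2 units, SE 0.22, adjusted p = 0.000647), and the ERK and p38 effector Mknk2 (0.60 log2 units, SE 0.16, adjusted p = 0.00997). All 3 tyrosine phosphatases that act on MAP kinases fell (median -0.93). Ptpn5, the striatum-enriched phosphatase STEP, went from 319.9 ± 11.9 to 168 ± 52.1 CPM (-0.93 log2 units, SE 0.19, adjusted p = 0.00321), and Ptpn7 and Ptprr gave -1.10 log2 units (SE 0.27, adjusted p = 0.00771) and -0.66 log2 units (SE 0.21, adjusted p = 0.0263). The 5 striatal projection neuron markers all fell in the same comparison, and their part in the change of Ptpn5 and Rasgrp2 was not tested. Of 21 transcription genes that respond to MAP kinases, 7 rose and 4 fell (median 0.21), led by Atf3 (3.91 log2 units, SE 0.49, adjusted p = 0.000206), Myc (2.22 log2 units, SE 0.38, adjusted p = 0.00112) and Jun (0.91 log2 units, SE 0.17, adjusted p = 0.00179), all higher. The 4 that fell were the immediate early genes Egr1 (-0.91 log2 units, SE 0.24, adjusted p = 0.00942), Egr2 (-1.17 log2 units, SE 0.37, adjusted p = 0.0244), Egr3 (-0.98 log2 units, SE 0.36, adjusted p = 0.0465) and Egr4 (-1.05 log2 units, SE 0.35, adjusted p = 0.0309). Without Vehicle mice 1 and 2, 17 of the 73 genes of all these lists were higher and 15 lower, beside 15.7% and 14% of all genes, where all 12 mice gave 19 and 18. Of the responsive genes 6 were then higher and 2 lower (median -0.040), with 3.1 log2 units for Atf3, 1.18 for Myc, 0.51 for Jun and -0.54 for Egr1, all called, while Egr2, Egr3 and Egr4 were not called (adjusted p = 0.0563, 0.0551 and 0.0728). The MAPK-activated kinases gave 3 higher genes and the tyrosine phosphatases 3 lower genes in that fit, with medians of 0.28 and -0.83. Of the other genes named here, those whose change shrank by over 1.5 times without these mice, and which were still called, were Shc1 (1.2 log2 units), Spry1 (0.55), Spred2 (-0.27), Iqgap1 (1.05), Lamtor1 (0.23) and Mknk2 (0.28). Between LJP and Vehicle edgeR called 0 of the 73 genes of these lists, with 14 higher and 23 lower at an unadjusted p below 0.05 (all genes 12.3% and 17.4%), and DESeq2 called 2 higher and 14 lower (all genes 3.88% and 9.48%). Between LJP and Sham, 1 gene of RAS and RAF input rose and 1 fell, 1 scaffold rose and 1 responsive gene rose, beside 3.85% of all genes higher and 0.9% lower. DESeq2 called 6 of the 73 higher and 3 lower (all genes 5.67% and 1.98%), and edgeR without Vehicle mice 1 and 2 called 13 and 14 (all genes 12.3% and 12%). Among the genes named here, Rasgrp2 fell (-1.09 log2 units, SE 0.24, adjusted p = 0.0197) and Arrb2 (0.50 log2 units, SE 0.10, adjusted p = 0.0151) and Atf3 (2.6 log2 units, SE 0.49, adjusted p = 0.00846) rose.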

How the data were processed

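Poly(A) RNA of the ischemic hemisphere of 12 mice (4 Sham, 4 Vehicle, 4 LJP) was sequenced. The authors deposited raw read counts per gene, and the submitters' processing notes name featureCounts, DESeq2, GRCm39 and mm10 without roles or versions. The gene positions in the table match GRCm38, and the aligner, strand setting and handling of shared reads were not given in the sources used here. The labels name no separate cohorts, and p-values measure the spread between these mice. The airway epithelium markers, however, separated every LJP mouse from every other mouse. What lies behind this cannot be told apart from LJP in either LJP comparison, and was not tested. No 2 libraries were duplicates (chi-square per degree of freedom at least 2.48 within groups).

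The tests were run with edgeR 4.0.16 under R 4.3.3 (filterByExpr, TMM, quasi-likelihood fit of all 12 mice, 17558 of 30210 genes with a count), and p-values were adjusted by Benjamini-Hochberg and called below 0.05. Alternatives were DESeq2 1.42.0, RLE, library size only, no filter, the study's thresholds (absolute log2 fold change over 0.58, p below 0.01), 2 groups only, a replicate block and leaving out each mouse. The fit without Vehicle mice 1 and 2 was added after the data had been seen. Scripts were tested on simulated data. Levels between genes use CPM per kb of the table's gene length, whose definition is not stated. The members, gene lists and marker lists were chosen with earlier results of these data known. Values in every mouse were given by rule for the 12 members of lowest p-value in each comparison, for the member with the smallest p-value between Vehicle and Sham and the most abundant member of each tier, and for the nuclear inducible phosphatases. By the same rule the 3 genes of smallest p-value of each pathway list were named, with log2 fold changes and, for some, group means. Other members given by mouse, such as Map2k6, and the Egr genes, Gfap and Cd4 were chosen after their values were seen. One member and 1 marker gene are counted in the totals but not reported here. Figures were drawn with matplotlib 3.10.9.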

Additional observations from a re-analysis of the deposited data

Results flagged for a closer look

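In 6 of 90 groups of 4 mice (the named members in each group), 1 mouse lay apart from the other 3 by Dixon's criterion, in which its gap to the nearest mouse over the whole range exceeds the critical value for 4 samples at the 95% level. Chance gives about 1 in 20 groups, or 4.5 of 90. Map2k3 was lowest in Sham mouse 4 (gap over range 0.841), Dusp2 in Sham mouse 1 (0.834), Dusp8 in Vehicle mouse 2 (0.832) and Map3k11 in LJP mouse 1 (0.847). Dusp19 was highest in Sham mouse 3 (0.925), and so was Dusp4 (0.861).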

How the results depend on the processing

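The members called between Vehicle and Sham were the same 22 higher and 21 lower by DESeq2. Of the counts of members called, the following moved by more than 1.5 times, and the cause was not tested. With the study's thresholds, 8 were lower in Vehicle against Sham (all genes 6.39%), 8 lower in LJP against Vehicle (all genes 5.89%) and 0 lower in LJP against Sham (all genes 0.797%). With only the 2 groups compared, 13 were lower in Vehicle against Sham (18.1%, against 11.6% of all genes), and 9 were higher and 13 lower in LJP against Sham (all genes 12.1% and 11.8%). In LJP against Vehicle, DESeq2 called 6 higher and 9 lower (all genes 3.88% and 9.48%), and no filter gave 1 higher (1.39%, against 0.166%) and 3 lower (4.17%, against 1.8%). Without Vehicle mice 1 and 2, chosen after seeing the data, 13 were higher in Vehicle against Sham (all genes 15.7%), and 9 higher and 13 lower in LJP against Sham (all genes 12.3% and 12%). Leaving out each mouse in turn gave 14 to 25 higher and 14 to 21 lower in Vehicle against Sham (fewest without Sham mouse 3, and for lower also Sham mouse 1), 0 to 13 higher and 0 to 17 lower in LJP against Vehicle (most without Vehicle mouse 3), and 1 to 5 higher and 0 to 4 lower in LJP against Sham (most without Vehicle mouse 2). The share of all genes called moved in these fits too, between 18.2% and 25.3% higher and 11.3% and 20.6% lower in Vehicle against Sham, 0% and 8.46% higher and 0.0167% and 13.1% lower in LJP against Vehicle, and 1.96% and 7.77% higher and 0.241% and 5.5% lower in LJP against Sham. In LJP against Sham, 1 member was higher without Sham mouse 1 or 4 or LJP mouse 3, and 0 lower without Sham mouse 1 or 2 or LJP mouse 1 or 3.

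Under the alternatives other than the fit without Vehicle mice 1 and 2, some log2 fold changes near 0 of members named by rule, none of them called, changed sign. In LJP against Vehicle, Dusp6 was at -0.0133 with library size only and -0.0824 to 0.0862 leaving out each mouse, Map4k1 at -0.23 to 0.20 and Rps6ka3 at -0.108 to 0.0689. In LJP against Sham, Dusp7 was at 0.00745 with library size only, and leaving out each mouse Map4k4 was at -0.00859 to 0.136, Dusp2 at -0.0461 to 0.191 and Rps6ka4 at -0.00222 to 0.0559. Some values farther from 0 changed sign without Vehicle mice 1 and 2, and those given here are examples. Mapk11, lower in Vehicle against Sham with all mice but not called, was then at 0.035. Dusp19 in LJP against Vehicle, at 0.0767 to 0.332 leaving out each mouse, was then at -0.116. Map3k6 in LJP against Vehicle, called lower by DESeq2, went from -1.56 to 0.030, and in Vehicle against Sham Dusp1 went from 0.54 to -0.13 and Mapk6 from 0.33 to -0.047. Replicate numbers did not pair the mice (correlations of same-numbered mice -0.322 to 0.114), and with a replicate block 20 were higher and 19 lower in Vehicle against Sham (all genes 19.7% and 15.1%), 0 and 0 in LJP against Vehicle (all genes 0% and 0.0114%), and 2 higher and 0 lower in LJP against Sham (all genes 2.31% and 0.336%). With 4 mice a group, an exact permutation test of 1 gene cannot go below p = 0.0286. Counts of Dusp9, Dusp13, Dusp27 and Map3k8 are too few for small changes to be detectable at this depth.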
